A study of Mus musculus with 8 samples.

Results

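Genes of cardiac muscle were followed in bulk RNA sequencing libraries of mouse lung. The 10 members were Myl4, Myl7, Sln and Nppa, which mark atrial muscle, Myl2, Myl3 and Myh7, which mark ventricular muscle, and Myh6, Actc1 and Tnnt2, which adult mouse atria and ventricles share. They were selected by symbol from the 52195 genes of the table, with their lung values already known, so their levels are given as a description and without a test. The question behind the selection was whether the cardiac transcripts in lung are of the atrial or the ventricular kind. The series held 4 tissues, lung, kidney, liver and small intestine, with 2 libraries each. All 8 came from untreated males of the inbred mouse strain C57BL/6J (C57BL/6 in the labels), aged 6 to 10 weeks, and the libraries of a tissue were made from separate mice. By the study's methods all 4 organs were taken from each mouse, so libraries of different tissues can come from the same animal, but no source used here says which do. Organs were excised, rinsed in PBS and ground to powder, and polyadenylated RNA was sequenced. No heart library and no dissected vessel was among the groups used here.

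Heart muscle cells of the atria and the ventricles build the same contractile machinery from partly different genes. In adult mice the atria use the light chains encoded by Myl7 and Myl4 and the calcium pump inhibitor sarcolipin (Sln), and store the hormone made from Nppa, whereas the ventricles use the light chains of Myl2 and Myl3. In mice and other rodents, striated muscle of the atrial kind also surrounds the pulmonary veins and runs with them into the lung, and large vessels with pieces of the heart base can stay attached to an excised lung. In a bulk library, fewer cells of a type and less RNA per cell cannot be told apart.

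The members that stand against each other in this comparison are related genes, and short stretches of their coding sequence show how far reads can separate them. Positions count from the first base of the start codon of the principal transcript (GRCm38, GENCODE M21), and capitals mark the bases at which the genes of a pair differ. The atrial and ventricular regulatory light chains differed at 32 of these 90 bases, from position 115 in Myl7 and 91 in Myl2:
Myl7 coding sequence: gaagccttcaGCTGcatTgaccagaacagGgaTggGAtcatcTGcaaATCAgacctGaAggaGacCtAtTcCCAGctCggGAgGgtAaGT
Myl2 coding sequence: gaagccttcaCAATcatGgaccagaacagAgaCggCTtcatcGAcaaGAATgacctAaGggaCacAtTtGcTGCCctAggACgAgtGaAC
The essential light chains differed at 21 of 90 bases, from position 119 in Myl4 and 152 in Myl3:
Myl4 coding sequence: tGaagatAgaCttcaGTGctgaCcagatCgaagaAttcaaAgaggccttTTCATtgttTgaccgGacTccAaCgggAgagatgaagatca
Myl3 coding sequence: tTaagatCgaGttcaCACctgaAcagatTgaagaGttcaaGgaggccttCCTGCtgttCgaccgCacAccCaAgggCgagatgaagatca
By contrast, the heavy chains have long stretches in common, such as these 120 bases, at position 4246 in Myh6 and 4240 in Myh7, which hold no difference:
Myh6 and Myh7 coding sequence: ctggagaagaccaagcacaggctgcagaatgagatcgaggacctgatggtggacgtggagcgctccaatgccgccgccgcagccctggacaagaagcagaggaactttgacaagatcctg
Over the whole aligned coding sequence the identity was 64.3% for Myl7 and Myl2, 77.0% for Myl4 and Myl3 and 91.7% for Myh6 and Myh7. The longest run without a difference was 16, 29 and 245 bases, in the same order. Of all stretches of 31 bases in the principal transcript, 31.9% in Myh7 and 32.5% in Myh6 also occurred in another gene. The share was 0.832% in Actc1 and 0 in the other 7 members. The principal transcripts of the light chains thus hold no such stretch in common with another gene, whereas reads from the shared parts of the heavy chains cannot be assigned to Myh6 or Myh7, and how the authors counted such reads is not given in the sources used here.

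The promoters of 9 of the 10 members were present in the RefSeq promoter sequences (GRCm38.p6, 250 bases before to 50 after each start), with 12 starts. Letters were searched on both strands. A CArG box, the recognition sequence of serum response factor, was found in 3 of the 9 genes. It was in 3 of the 12 starts, against 1.63% of all 32851 promoters, in Myl7, Actc1 and Myl3. These are shown because they include an atrial, a shared and a ventricular member, and capitals mark the matches to CArG, CATTCC (the core of an MCAT element) and TATAAA:
Myl7, chr11:5898733-5899032, minus strand: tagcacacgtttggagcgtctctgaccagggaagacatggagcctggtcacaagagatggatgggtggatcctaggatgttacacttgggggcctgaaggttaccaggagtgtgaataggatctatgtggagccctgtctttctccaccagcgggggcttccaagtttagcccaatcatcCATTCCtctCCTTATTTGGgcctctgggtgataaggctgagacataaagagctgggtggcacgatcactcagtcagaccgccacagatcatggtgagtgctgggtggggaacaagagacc
Actc1, chr2:114052826-114053125, minus strand: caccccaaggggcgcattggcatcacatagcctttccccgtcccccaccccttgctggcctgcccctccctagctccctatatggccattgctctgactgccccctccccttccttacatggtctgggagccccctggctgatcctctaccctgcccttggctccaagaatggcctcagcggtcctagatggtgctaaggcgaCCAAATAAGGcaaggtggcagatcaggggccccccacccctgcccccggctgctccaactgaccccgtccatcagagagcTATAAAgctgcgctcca
Myl3, chr9:110763428-110763727, plus strand: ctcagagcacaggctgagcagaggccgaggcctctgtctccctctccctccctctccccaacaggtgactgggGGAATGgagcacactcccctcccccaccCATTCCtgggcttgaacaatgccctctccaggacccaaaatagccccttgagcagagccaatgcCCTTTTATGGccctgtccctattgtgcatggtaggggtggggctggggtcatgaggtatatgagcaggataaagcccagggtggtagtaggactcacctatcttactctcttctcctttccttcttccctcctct
CATTCC was found in Myh6, Myh7, Myl3, Myl7 and Tnnt2 (5 of 9 genes and 5 of 12 starts, 14.7% of all promoters). TATAAA was found in Actc1, Myh6, Myl2 and Nppa (4 of 9 genes and 4 of 12 starts, 13.6% of all). AGATAA, which factors of the zinc finger family to which Gata4 belongs recognise, was found in Myl2 and Tnnt2 (11.2% of all promoters), AGGTGT, a T-box motif, in Nppa (13.7% of all), and the MEF2 motif in none of the 9 (1.86% of all). No motif searched was found in every atrial and in no ventricular promoter. The RefSeq starts of Myl3 and Actc1 shown here lie inside the spans that GENCODE gives these genes, and both RefSeq starts of Myl2 lie before the GENCODE start, so the windows searched differ in where they stand in the gene.

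Values are fragments per kilobase of transcript per 1e6 reads (FPKM), which are per length of all annotated exons of a gene. Where transcripts of a gene differ much in length, this scale lowers it against other genes, which bears on Myl4 and Tnnt2 most. The steps between low values gave the reads behind each value. The lung libraries held 9764403 and 12427317 reads on genes, and the other 6 between 9164169 and 21444625. For a gene with 1 kb of exons, 3 reads corresponded to an FPKM between 0.140 and 0.327, and lower values cannot be told from 0. The tissue labels were borne by their own genes, since the lung epithelial genes Sftpc, Sftpb, Sftpa1, Scgb1a1 and Ager had at least 744 FPKM in both lung libraries and at most 59.8 elsewhere. Markers of the other organs, each called lower in lung by the test given further on, were all higher in lung replicate 1 than in lung replicate 2. The sums in these libraries were 87.6 and 18.8 FPKM for the kidney genes Umod, Slc34a1 and Kap, 87.8 and 49.9 for the liver genes Alb, Cyp2e1 and Apoc3, and 13.7 and 2.99 for the small intestine genes Fabp2, Olfm4 and Vil1.

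The atrial regulatory light chain was the highest of the members in lung, and the other abundant atrial members lay below the shared gene Actc1. Myl7 (chr11:5896637-5898782, minus strand), which encodes it, had an FPKM of 109 in lung replicate 1 and 107 in replicate 2. The kidney libraries had 1.26 and 0.587, the liver libraries 0.185 and 0.164, and the small intestine libraries 6.34 and 8.23. Both lung libraries stood far above the others, with a mean 13.2 times the highest of them, and Myl7 ranked 426th and 438th among all genes of the 2 lung libraries. Myl4 (chr11:104550663-104595753, plus strand), the atrial essential light chain, was at 15.4 in both lung libraries, and between 0.0805 and 0.230 in the other 6. Sln (chr9:53850164-53854560, plus strand), whose product inhibits the SERCA calcium pump and is abundant in atria, was at 15.9 and 17.5 in lung. Outside lung it rested on 1 read, in kidney replicate 2, and was listed at 0 in the other 5 libraries. These 3 genes varied little between the mice, with means of 108 ± 1.31 for Myl7, 15.4 ± 0.0568 for Myl4 and 16.7 ± 1.13 for Sln (SD, n = 2).

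Nppa (chr4:148000722-148002079, plus strand), which encodes the precursor of atrial natriuretic peptide, was the lowest atrial member. Its FPKM was 1.54 and 0.930 in the lung libraries, from 13 and 10 reads. The kidney libraries had 2 reads and 1 read, at 0.108 and 0.0668, and the liver and small intestine libraries were at 0. The level has a known limit: exons of the antisense gene Gm13054 cover 61.5% of the exon length of Nppa, and it is not stated whether reads in such overlaps were counted or whether strand was used. Gm13054 itself was at 0 in both lung libraries. Whether the overlap lowered the value of Nppa was not tested.

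The ventricular members were below Myl7, Sln and Myl4 in both lung libraries, though Myl3 was above the atrial member Nppa. Myl2 (chr5:122100951-122113472, plus strand), the ventricular regulatory light chain, had 1 read in lung replicate 1, an FPKM of 0.0525, and none in lung replicate 2 or in the 6 libraries of other tissues. In the lung libraries 3 reads of Myl2 would have given 0.158 and 0.124, so this depth could not detect it in either. Only 3.08% of its exon length is covered by another gene, Ccdc63, and no 31-base stretch of its principal transcript occurred in another gene's. Myl3 (chr9:110741861-110769798, plus strand), the ventricular essential light chain, which slow skeletal muscle uses as well, was at 4.96 and 2.48 in lung from 99 and 63 reads. It was at 0.0913 and 0.0565 in kidney and at 0 in liver and small intestine. Pth1r, which shares 4.65% of the exon length of Myl3, was at 161 and 169 in kidney, where Myl3 had 4 and 2 reads.

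Myh7 (chr14:54970684-54994626, minus strand), the slow heavy chain, which in adult mice is found mainly in slow skeletal muscle and little in the heart, was at 0.511 and 0.682 in lung from 43 and 73 reads. The other libraries had at most 4 reads of it and an FPKM of 0.0216 or less. Its locus also holds antisense transcripts: Mhrt shares 5.62% of the exon length of Myh7 and was at 0.506 and 0.530 in the lung libraries and at 0 in the other 6. Gm17428, annotated as a coding gene on the strand opposite Myh7 with no exon base in common, was at 5.51 and 6.06 in lung and at 0 elsewhere, and was named after its values were seen. Without a stated strand, reads of Myh7 and of its antisense partners cannot be told apart where they overlap. The means in lung were 3.72 ± 1.75 for Myl3, 0.596 ± 0.121 for Myh7 and 0.0263 ± 0.0371 for Myl2 (SD, n = 2).

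Members shared by both chambers were at the level of the atrial ones. Actc1 (chr2:114047282-114053548, minus strand), cardiac α-actin of the thin filament, was at 81.8 and 89.6 in the lung libraries and between 0 and 0.218 in the other 6. Myh6 (chr14:54941921-54966927, minus strand), the fast heavy chain of the adult mouse heart, was at 13.2 and 13.1 in lung and at no more than 0.0347 elsewhere. Tnnt2 (chr1:135836354-135852260, plus strand), cardiac troponin T, was at 11.7 and 12.3 in lung, 1.25 and 0.638 in small intestine, and at most 0.0722 in kidney and liver. The lung means were 85.7 ± 5.51, 13.1 ± 0.0414 and 11.98 ± 0.466 (SD, n = 2), in the same order.

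**Figure D1:**
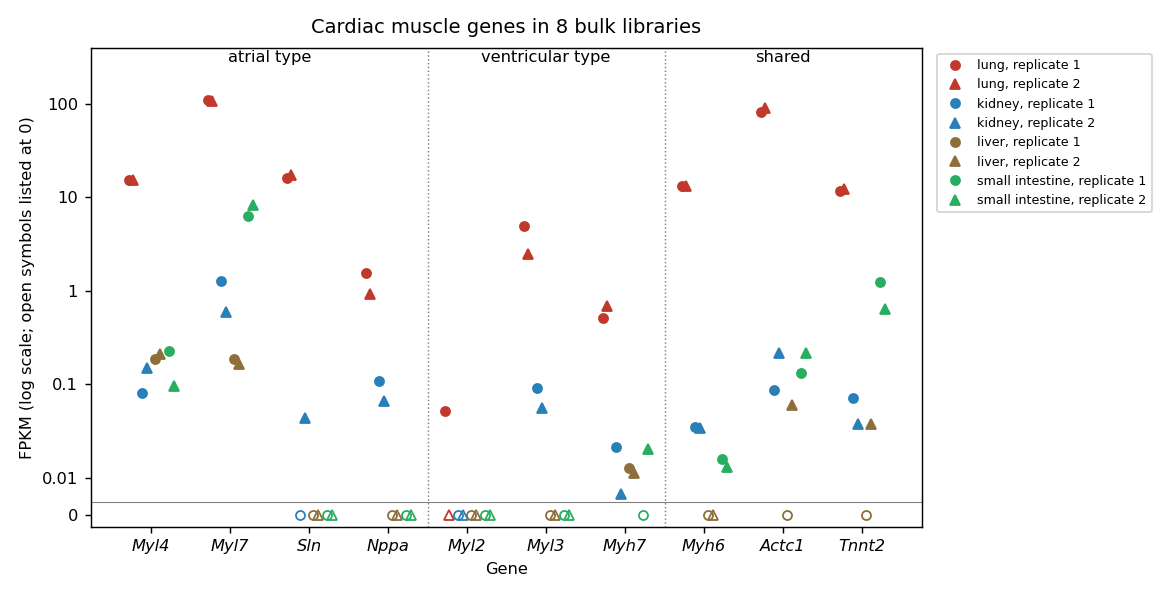
FPKM on a log scale (vertical axis) of the 10 members (horizontal axis) in each of the 8 libraries, with circles for replicate 1, triangles for replicate 2, a colour per tissue and open symbols for a value of 0. Both lung libraries lie above all others for 9 of the 10 genes, from 109 for Myl7 down to 0.511 for Myh7, while Myl2 has 1 read in lung replicate 1 and 0 elsewhere.

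In order of the lung mean, the members were Myl7, Actc1, Sln, Myl4, Myh6, Tnnt2, Myl3, Nppa, Myh7 and Myl2. The ranges of neighbouring genes did not overlap between the 2 libraries, with Myl7 above Actc1 and Sln above Myl4 in each. Exon length bears on part of this order. FPKM divides by the length of all annotated exons, and for Myl4 and Tnnt2 this is 4.92 and 6.46 times the length of the principal transcript. Per kilobase of the principal transcript, a scale chosen after the data were seen, Myl4 was at 75.9 and 75.5 and Tnnt2 at 75.3 and 79.5, close to Actc1 at 89.8 and 98.4. Myl7 has a single annotated transcript and stayed at 109 and 107, Myl3 was at 10.8 and 5.41, and Myl2 at 0.115 and 0.

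Within pairs of genes that take the same place in the sarcomere, the atrial gene exceeded the ventricular gene in both lung libraries. For the regulatory light chains there were 629 reads of Myl7 against 1 of Myl2 in replicate 1, an FPKM ratio of 2079 that a single read leaves very uncertain (95% counting interval 372 to 82241). In replicate 2 there were 787 against 0, with a lower bound of 703 by the same interval. Taking 3 reads as the floor for Myl2, Myl7 was at least 693-fold higher in replicate 1 and 867-fold in replicate 2. Per kilobase of the principal transcript, 3 reads of Myl2 would put Myl7 316-fold higher in replicate 1 and at least 395-fold higher in replicate 2. For the essential light chains Myl4 was 3.11-fold higher than Myl3 in replicate 1 (2.52 to 3.88) and 6.19-fold higher in replicate 2 (4.79 to 8.13). These intervals cover counting error within a library and not the spread between mice, so whether the ratio differs between the 2 mice was not tested. Per kilobase of the principal transcript the ratios were 7.02 and 14.0.

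Myh6 made up 96.3% and 95.1% of the summed FPKM of the heavy chain pair, a ratio to Myh7 of 25.8 (19.0 to 35.9) and 19.2 (15.2 to 24.7). The atria and the ventricles of adult mice both use Myh6, so this pair does not separate the chambers. Among the inhibitors of the SERCA pump, Sln was 14.3-fold (9.72 to 21.7) and 26.1-fold (17.1 to 41.9) higher than Pln, which encodes phospholamban and is richer in ventricles. Pln was at 1.11 and 0.671 in lung, and 64.7% of its exon length lies under another gene, so its level has the same limit as that of Nppa. All intervals here cover counting error within a library only and take each read as an independent count. The study's methods name no molecular identifiers for these libraries.

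**Figure D2:**
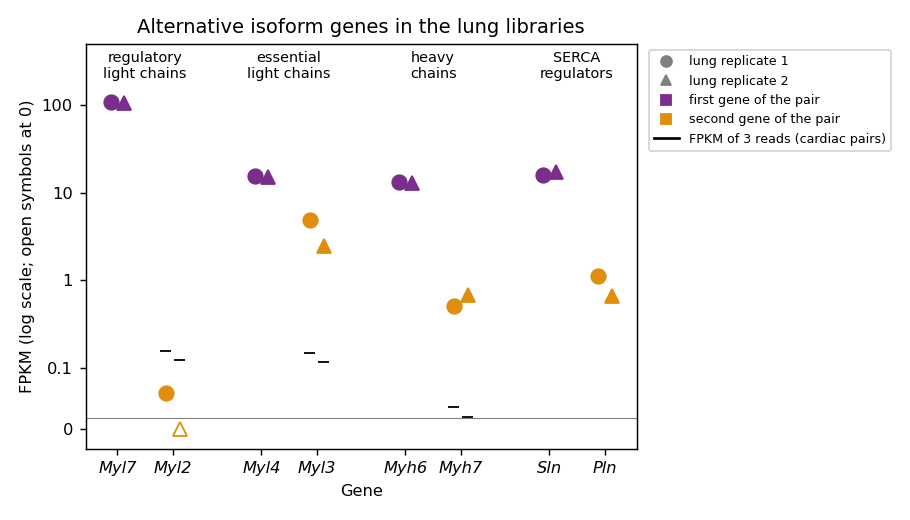
FPKM on a log scale (vertical axis) of 4 pairs of genes (horizontal axis) in lung replicate 1 (circles) and replicate 2 (triangles). Bars mark the FPKM that 3 reads of the second gene would give, with no bar for Pln, and open symbols lie at 0. Myl2 lies below its bar in both libraries, while Myl3, Myh7 and Pln lie above 0.5 in both and below their partners.

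The median log2(FPKM + 1) of the 4 atrial members exceeded that of the 3 ventricular members by 3.46 in lung replicate 1 and 3.37 in replicate 2, a mean difference of 3.42 ± 0.0658 (SD, n = 2). The ventricular median in both lung libraries is the value of Myh7, which is low in the adult mouse heart as a whole, so this difference does not separate the chambers. With Myl2 and Myl3 alone, an alternative chosen after the data were seen, it was 2.74 and 3.22, and it then averages Myl2, at or near 0, with Myl3. In the other 6 libraries, with Myh7, the difference lay between 0.0656 and 0.150. Summed over the 10 members, the FPKM was 254.2 and 259.3 in lung, of which the atrial members gave 142 and 141, the shared members 107 and 115 and the ventricular members 5.52 and 3.16. The members took 484 and 498 reads per 1e6 reads on genes in the lung libraries. In the other tissues the sum was between 0.386 and 1.76 in kidney and liver and 7.97 and 9.22 in small intestine, where Myl7 made up most of it.

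As differences on the log2(FPKM + 1) scale, lung minus the mean of the 3 other tissues was 6.28 for Actc1 (standard error 0.14), 5.37 for Myl7 (0.18), 4.14 for Sln (0.11), 3.82 for Myl4 (0.12), 3.80 for Myh6 (0.10), 3.35 for Tnnt2 (0.15) and 2.15 for Myl3 (0.18). Nppa, Myh7 and Myl2 did not pass the filter of 1 FPKM in at least 2 libraries, with differences of 1.11, 0.66 and 0.04, so 7 of the 10 passed it. In 9 of 10 members both lung libraries were above the other 6. The same held for 37.4% of the 30154 genes above 0 in any library, and nothing is read from the comparison, because the members were chosen for their lung values. The median of these differences over all 16328 genes tested was 0.82, and -0.09 after median-of-ratios scaling, so the scaling moves lung against the other tissues for most genes.

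The 2 lung libraries agreed closely for most members and differed for a few. On the log2(FPKM + 1) scale, replicate 2 minus replicate 1 was -0.78 for Myl3 and -0.40 for Nppa, and between -0.07 and 0.15 for the other 8. The median absolute difference over all genes tested was 0.15. Of 17 skeletal muscle genes 15 were lower in replicate 2, with a median difference of -0.36, and Tnnc2 and Myod1 were at 0 in both. Of the exon length of Tnnc2, 74% lies under another gene, so its level has the same limit as that of Nppa. The 17 genes summed to 52.6 FPKM in replicate 1 and 10.4 in replicate 2, and most of that fall was in Acta1. Acta1, the skeletal α-actin, was at 26.7 and 0.262, Tnnt3, fast troponin T, at 6.92 and 2.24, and Tnni2, fast troponin I, at 5.75 and 1.83. Tnnt1 and Tnni1, the troponins of slow muscle, which uses Myl3, were at 0.743 and 0.657 and at 0.0853 and 0.0447, and were named after their values were seen. The part of skeletal muscle in the level of Myl3 was not tested.

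**Figure D3:**
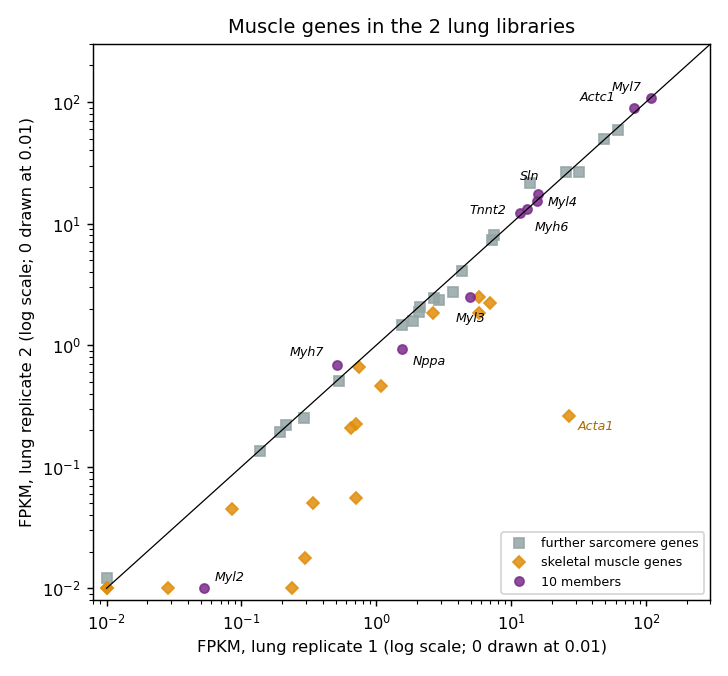
FPKM in lung replicate 1 (horizontal axis) against lung replicate 2 (vertical axis), both on log scales with 0 drawn at 0.01, for the 10 members, 21 further sarcomere genes and 17 skeletal muscle genes, with the line of equality. Most members lie on the line, Myl3 lies below it at 4.96 and 2.48, and the skeletal gene Acta1 lies far below it at 26.7 and 0.262.

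Further cardiac genes, which were not members, were compared by limma with Benjamini-Hochberg adjustment over all genes tested, lung against the mean of the other tissues. A gene was called at an adjusted p under 0.05 and a difference over 1 on the log2 scale. The p-values measure the spread between these libraries, 2 per tissue. Of 77 such genes in 8 lists, 52 passed the filter, 38 were called higher in lung and 1 lower, with a median difference of 1.67. Among all genes tested, 40.7% were called higher and 8.26% lower. After median-of-ratios scaling 26 of 46 were higher and 2 lower, with a median of 1.14, against 15.1% and 16.9% of all genes. Many of these genes passed the filter only through the lung libraries, which favours a call, and the lists were chosen with earlier results known. Without the filter 37 of the 77 (48.1%) were called higher, against 22.1% of all 30154 genes above 0 in any library.

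Of 21 further sarcomere genes 15 were tested and 13 were called higher in lung, where 40.7% of all genes were. After median-of-ratios scaling 11 of 13 were called higher, where 15.1% of all genes were. Tcap, the titin cap of the Z-disc, was at 32.1 and 26.7 in lung and at most 0.451 elsewhere, a difference of 4.74 (standard error 0.14, adjusted p = 3.22e-07, limma). Tnni3, cardiac troponin I, was at 25.6 and 26.7 in lung and at most 0.621 elsewhere, with a difference of 4.52 (adjusted p = 5.44e-07, limma). Nebl, cardiac nebulette, was at 7.40 and 8.07, and Tnnc1, the troponin C of heart and slow muscle, at 13.7 and 21.5. Those 4 genes were above all other tissues in both lung libraries. Tpm1 at 61.6 and 59.2 and Des, which encodes desmin, at 48.8 and 49.2 were called higher too, but smooth muscle uses both, and in small intestine they reached 57.7 and 49.9.

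The energy genes of striated muscle followed. In this list 8 of 10 were called higher, where 40.7% of all genes were. After median-of-ratios scaling 7 were higher and 1 lower, against 15.1% and 16.9% of all genes. The lower one was Cox7a1, at -1.28, named after its values were seen. Mb, myoglobin, was at 46.2 and 41.6 in lung and at most 0.141 elsewhere, a difference of 5.42 (standard error 0.13, adjusted p = 2.84e-07, limma). Cox6a2, the muscle form of a cytochrome oxidase subunit, was at 25.001 and 25.3 with a difference of 4.21, Ckmt2, the mitochondrial creatine kinase of sarcomeric muscle, at 7.65 and 8.45 with 3.10, and Cox8b at 5.97 and 8.72 with 2.89. Slc25a4 and Fabp3 were called higher but reached 168 and 34.0 in kidney, against 130 and 125 and 15.6 and 16.9 in lung.

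Calcium handling and excitation genes were called higher for 7 of 10 tested, and for 3 of 6 after median-of-ratios scaling. Of all genes, 40.7% and 15.1% were called higher, in the same order. Casq2, cardiac calsequestrin, was at 6.18 and 5.74 in lung and at most 2.93 elsewhere, and Gja1, connexin 43, at 4.73 and 4.75 with at most 1.39 elsewhere. Popdc2, a cAMP-binding protein of heart muscle, was at 3.21 and 5.08, and Jph2, junctophilin 2, at 3.20 and 3.63. Atp2a2, the SERCA2 pump, at 47.4 and 43.0, and the potassium channel gene Kcnq1, at 4.38 and 4.95, did not pass the size threshold.

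Among 12 further atrial genes, 6 were tested, 4 were called higher and none lower, where 40.7% of all genes were called higher. With so few genes tested, the atrial and ventricular counts were not compared. Tbx5, a T-box factor of the atria that lung mesenchyme also expresses, was at 7.93 and 8.95 in lung and at most 0.0467 elsewhere, a difference of 3.22 (standard error 0.10, adjusted p = 3.83e-07, limma). Gja5, the atrial connexin 40, which arterial endothelium expresses as well, was at 4.85 and 9.06 and at most 0.795 elsewhere, with a difference of 2.54 (adjusted p = 3.02e-05). Dkk3 was at 24.2 and 19.7, and Sbk3, a kinase gene of the heart, at 0.737 and 1.18, below the filter. Bmp10, a secreted factor of the right atrium, was at 0 in both lung libraries and was singled out after its values were seen. After median-of-ratios scaling 3 of 6 were called higher, where 15.1% of all genes were.

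The COUP-TF genes of this list set libraries apart within tissues. Nr2f1 was at 35.4 and 2.496 in the lung libraries, 0.275 and 22.9 in those of kidney, 30.2 and 31.5 in those of liver and only 0.0839 and 0.0347 in small intestine. It was not called. Nr2f2 was at 25.7 and 8.49 in lung, 5.98 and 14.5 in kidney and 14.5 and 19.1 in liver, so 3 libraries of other tissues were above lung replicate 2. Its call as higher (difference 1.20, adjusted p = 0.0297, limma) was lost after median-of-ratios scaling, at 0.10. The replicates of lung and of kidney thus differed more in Nr2f1 than in any cardiac member, and the cause was not tested.

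Among 6 further ventricular genes, 4 were tested and 2 were called higher, a share near the 40.7% of all genes. Irx4, a ventricular homeobox gene, was at 0 in both lung libraries. Irx5 was at 6.78 and 7.23 in lung with a difference of 2.64 (adjusted p = 5.51e-06, limma), and Kcnj2, an inward rectifier channel, at 2.48 and 2.90 with 1.41 (adjusted p = 2.64e-05, limma). Irx5 is also expressed in lung mesenchyme. Hey2, a repressor of the ventricle and of arteries, at 1.14 and 1.05, and Kcnip2, at 0.619 and 0.486, were not called. After median-of-ratios scaling 1 of 3, Irx5, was called higher, where 15.1% of all genes were. The call of Kcnj2 was lost, at 0.82.

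Pacemaker genes were low in lung, apart from Tbx3. Hcn4, Shox2 and Tbx18 were at 0.124 or less in both lung libraries. Isl1 was at 0.698 in replicate 1, from 27 reads, and 0 in replicate 2, and Tbx3, which lung also expresses, at 13.1 and 11.9 with up to 15.7 in small intestine, was the 1 gene called of 2 tested under both scalings. Of the 8 cardiac transcription factors, 4 were tested, 3 were called higher and 1 lower, and after median-of-ratios scaling none of 5 was higher and 1 was lower. For both lists, the shares of all genes were 40.7% higher and 8.26% lower, and 15.1% and 16.9% after that scaling. Gata4 was the lower one, at 0.262 and 0.247 in lung against 25.6 in small intestine replicate 1, a difference of -1.80 (adjusted p = 1.39e-05, limma). Nkx2-5, a factor of heart muscle and of the pulmonary vein sleeve, was at 0.0672 and 0.422 in lung and at 0 in the other 6 libraries. Gata6 was called higher than the mean of the others at 10.2 and 11.1, but small intestine was above lung, at 23.6 and 26.7. Mef2a was at 11.1 and 9.50, and Mef2c at 2.72 and 3.26, both above all other tissues. The other natriuretic peptides were Nppb, at 0.262 and 0, and Nppc, at 2.16 and 0.0772, of which neither was called.

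**Figure D4:**
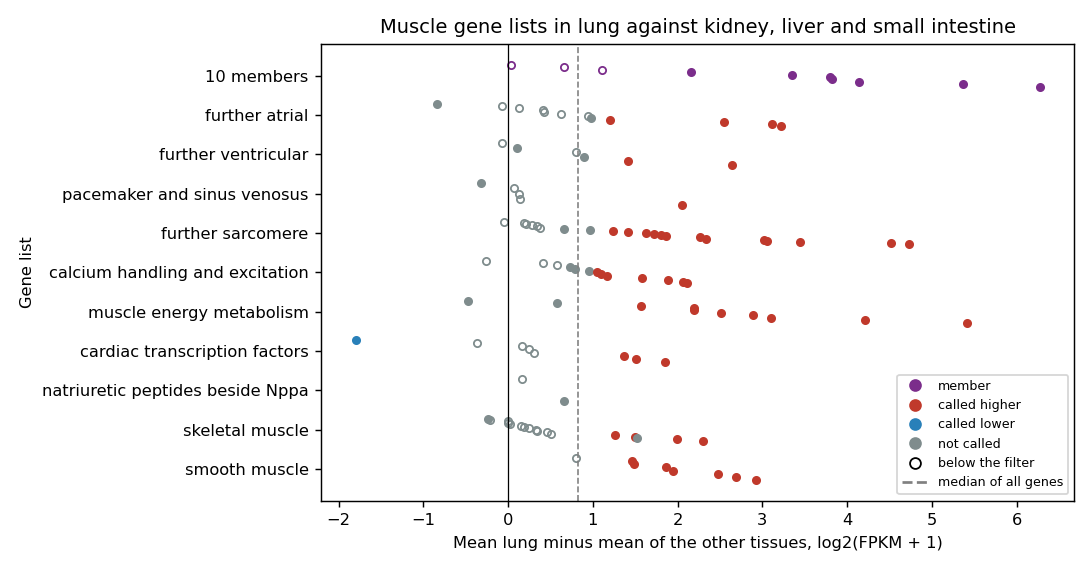
Difference between the lung mean and the mean of the other tissues in log2(FPKM + 1) (horizontal axis) for the members and the genes of 8 further cardiac lists, skeletal and smooth muscle (vertical axis), with filled points for genes that passed the filter, open points for genes below it and a dashed line at the median of all genes, 0.82. The members Actc1, at 6.28, and Myl7, at 5.37, together with Mb, at 5.42, lie furthest to the right of the genes drawn, and Gata4 at -1.80 is the 1 gene among them called lower.

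Smooth muscle, which the walls of airways, vessels and gut hold, was at a like summed level in lung and small intestine, though single genes differed. Its 8 genes summed to 354 and 362 FPKM in lung and to 438 and 355 in small intestine, whereas the members were at 254.2 and 259.3 against 7.97 and 9.22. Of 7 tested, 7 were called higher in lung by the same test, and 4 of 7 after median-of-ratios scaling, where 40.7% and 15.1% of all genes were. Acta2, smooth muscle actin, was at 149 and 152 in lung and up to 139 in small intestine, and Myh11, the smooth muscle heavy chain, at 15.8 and 16.4 in lung and up to 31.7 there. Actg2 was at 16.1 and 15.8 in lung against 65.2 and 55.6 in small intestine. Tagln was at 0.876 and 1.42 in lung, and 67.9% of its exon length lies under another gene. Of the 17 skeletal muscle genes 6 were tested and 4 were called higher, with 1 of 4 after median-of-ratios scaling, against the same shares of all genes.

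Traces of the members in other tissues were compared with those of lung epithelial genes. The 5 epithelial genes were at 0.0204% to 0.228% of their lung mean in the other 6 libraries. Of the 6 members with a lung mean of at least 10, the number above the highest epithelial share of the same library was 5 and 6 for kidney, 1 and 3 for liver and 3 and 4 for small intestine. Counting only values of at least 3 reads, it was 5 and 5, 1 and 2, and 3 and 4, and several of these were still within a few reads of the epithelial share, such as Actc1 in kidney replicate 1 with 3 reads. Myl4 exceeded it in all 6, at 0.522% to 1.496% of its lung mean. In small intestine Myl7 was at 5.85% and 7.60% of its lung mean, from 35 and 55 reads, and Tnnt2 at 10.5% and 5.32%, from 91 and 56 reads. Sln, Myh6 and Actc1 were at no more than 0.264% of their lung mean in any other library. What gave rise to these traces was not tested.

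**Figure D5:**
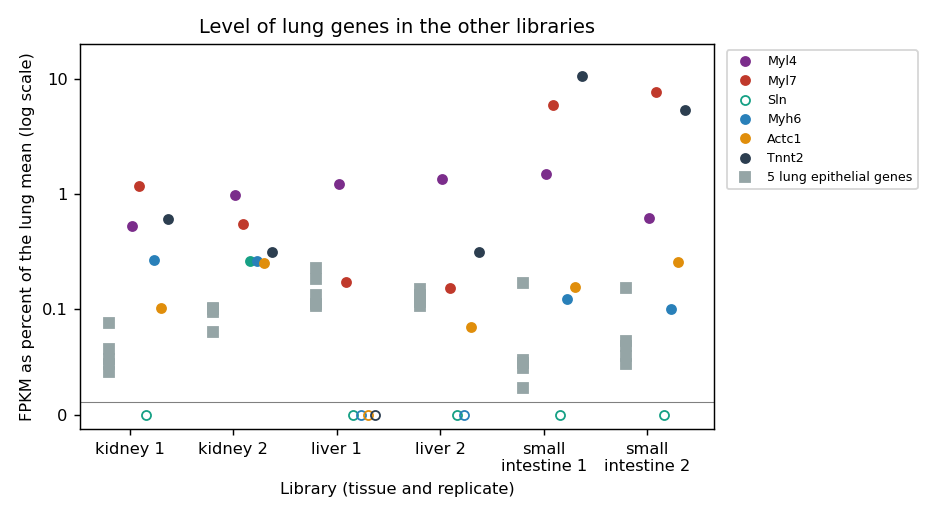
FPKM in each of the 6 libraries of other tissues (horizontal axis) as a percent of the lung mean on a log scale (vertical axis), for 5 lung epithelial genes (grey squares) and the 6 members with a lung mean of at least 10 (circles, open at 0). Myl7 and Tnnt2 in small intestine, between 5.32% and 10.5%, lie far above the epithelial genes, which reach 0.228%.

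The genes whose levels followed the members most closely over the 8 libraries were not all cardiac. By the Pearson correlation with the mean log2(FPKM + 1) of the 10 members, the closest were Adamts8, a secreted metalloprotease (0.9996), Ace3, a relative of angiotensin-converting enzyme (0.9995), Spock2, a matrix proteoglycan (0.9994), Tbx1, a T-box factor (0.9994), and Tcap (0.9993). Spock2 was at 41.5 and 39.9 in the lung libraries and at most 0.811 elsewhere, and Tbx1 at 11.9 and 10.3 with at most 0.421 elsewhere. The 8 points are 2 lung libraries against 6 others and share their depth and scaling, so any gene high in both lung libraries alone scores near 1. Of 16321 genes ranked, 552 were above 0.99, among them 12 of the 52 further cardiac genes.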

How the data were processed

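Polyadenylated RNA of lung, kidney, liver and small intestine was sequenced, with 2 libraries per tissue, each assigned by its label. The deposited table holds FPKM values, made by the authors, for 52195 genes. By the study's methods, the authors used bbduk to pick the reads of each index, aligned them with STAR 2.5.3a to the mouse genome of Ensembl release 75 (GRCm38) and scaled by library size with the function fpkm in DESeq2. The program that counted reads on genes and its use of strand are not given in the sources used here. FPKM divides by library size, so a few very abundant transcripts lower all other values of a library.

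Symbols were matched to GENCODE M21 (51847 of 52195, 99.3%) for positions and exon lengths. Reads behind a value were recovered as FPKM times exon length over the value of 1 read. Among values under 50 reads, whole reads (within 0.02) made up 94.5% to 96.1% in each library. The depth was 9164169 to 21444625 reads on genes, and 3 reads were taken as the floor. Fold intervals between 2 genes are exact 95% binomial (Clopper-Pearson) intervals.

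Values were analysed as log2(FPKM + 1), which understates differences of low genes. Genes that reached 1 FPKM in at least 2 libraries were fitted with limma 3.58.1 (lmFit, eBayes with a trend) in R 4.3.3 over all 8 libraries, lung against the mean of the other tissues, with Benjamini-Hochberg adjustment over 16328 genes. The step was tested on simulated data. Other values were computed with pandas 2.3.3, numpy 2.4.6 and scipy 1.17.1 (Python 3.11.15) and plotted with matplotlib 3.10.9.

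The members and the gene lists were chosen with earlier results of these data known. The lists covered 8 groups of further cardiac genes, skeletal muscle, smooth muscle, mesothelium, thymus, fat, and genes of each of the 4 tissues. Named are all members, up to 4 genes of each other list with the highest lung mean and up to 2 more with the largest difference, every gene called lower, and the 5 genes most correlated with the members. Alternatives changed the pseudocount, the filter, the scaling, the limma prior, the replicate block, the summary over members, the gene length, the ventricular members and the libraries included. The result of 1 listed gene is not reported here.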

Additional observations from a re-analysis of the deposited data

How the results depend on the processing

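The count of all genes called higher in lung, 6652, fell to 2345 after median-of-ratios scaling, rose to 9013 with the same sum in each library and to 8870 with a pseudocount of 0.1, and lay between 5044 and 7063 with 1 library left out. The count of 38 further cardiac genes called higher was 26 after that scaling, between 37 and 44 under the other alternatives with all libraries, and between 19 and 39 with 1 library left out. It was 19 without lung replicate 1 and 21 without lung replicate 2, where 30 and 31 of the listed genes could still be tested, because the filter asks for 1 FPKM in 2 libraries. The remaining lung library was then assumed to vary like those of the other tissues. The difference of atrial and ventricular members in lung, 3.42, was 4.55 with a pseudocount of 0.1, 2.87 after median-of-ratios scaling, 3.57 with the same sum in each library, 3.06 with the mean over members in place of the median, 4.34 with the principal transcript length and 2.98 without Myh7, the last 2 chosen after seeing the data. With either lung library alone it was between 3.37 and 3.46. The summed FPKM of the members, 256.8, was 138 after median-of-ratios scaling and 312 with the same sum in each library, and lay between 254.2 and 259.3 with a lung library left out. For the lung difference of single members, 140 alternative values were computed, of which 139 were positive and none reversed. Without Myl2 they ranged from 0.38 to 8.72. Of the 140, 42 lay further from the main value than the SD between the lung libraries. The members were chosen with their lung values known, so nothing is read from the sign.

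Replicate numbers 1 and 2 occur in every tissue, and all 4 organs were taken from each mouse, but neither labels nor methods say that a number marks a mouse. The correlation of deviations between tissues was between -0.22 and 0.05, never above 0.1. It cannot show whether equal numbers mark the same mouse, and the main fit used no pairing. With the replicate number as a block, 38 further cardiac genes and 6658 genes in all were called higher in lung. The depth limits Myl2, Nppa, Myh7 and Myl3 most, with at most 99 reads in a lung library.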

Other observations

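Mesothelial and fat genes were also found in the lung libraries, at different levels in the 2 replicates. The 4 mesothelial genes, which mark the lining of the pleura and the heart sac, summed to 83.5 and 53.1 FPKM in lung replicates 1 and 2 and to at most 4.13 elsewhere. The 3 of them that were tested were called higher in lung (40.7% of all genes were), with and without median-of-ratios scaling, such as Msln, mesothelin, at 68.2 and 40.5 (difference 4.88, adjusted p = 1.75e-06, limma). Fat genes, 5 in number, summed to 114 and 65.7, with the adipokine gene Cfd at 103 and 59.0 and Adipoq at 8.90 and 5.19, and to 21.2 and 19.3 in small intestine. Of 3 fat genes tested 2 were called higher, where 40.7% of all genes were. The 5 thymus genes summed to 8.53 and 10.5, nearly all of it Cd8b1, a T cell gene, at 7.94 and 10.1. Dntt was at 0.481 and 0.303 in lung, from 11 and 9 reads, and reached 0.564 in liver replicate 1. Rag1, Ptcra and Foxn1 were at 0.0798 or less in the lung libraries. In the fat and mesothelial lists replicate 1 was the higher library, as it was for Myl3 and Nppa, while the sum of the 10 members was 254.2 and 259.3.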
